A study of Mus musculus with 441 samples.

Results

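The cells described here are the T follicular helper cells of a mouse pancreatic islet data set in which a transcript of Il21 was found. Of 441 sorted cells, 172 carried the authors' annotation as T follicular helper cells. Of those, 43 held Il21 at 1 TPM (TPM is a transcript's share, scaled to a total of 1000000 per cell) or more and are called Il21-detected. The other 129 lay under 1 TPM and are called other follicular helper cells. The Il21 value itself chose the cells, so Il21 is described without a comparison and every other gene is compared between these groups of the same class.

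The study sorted single CD4 T cells by FACS from dissociated islets, using tetramers, reagents that bind T cells by the specificity of their receptor, and profiled each cell with the full-length SMART-Seq2 protocol. The tetramer sorts are named HIP and Ins in the labels, which do not spell out either name or give a strain, an age, a treatment or the number of animals. The HIP sort gave 26 Il21-detected and 85 other follicular helper cells, and the Ins sort gave 17 Il21-detected and 44 other follicular helper cells. Each sort counts as 1 sample because no animal is named, so the difference between Il21-detected and other cells was taken inside each sort and then averaged over the sorts. With 2 paired differences the smallest 2-sided exact p that a test could reach is 0.5, and no test was made.

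Interleukin 21 is a cytokine of the common gamma chain family that follicular helper T cells release to B cells, where it acts through its receptor Il21r and STAT3 to drive germinal centre growth and plasma cell formation. In T cells its gene is switched on after antigen receptor and costimulatory signals, with the transcription factors c-Maf, Batf, Irf4, NFAT proteins and Stat3 known as activators. Follicular helper cells are defined by the repressor Bcl6 and the chemokine receptor Cxcr5, which brings them to the B cell follicle.

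Il21 lies on chromosome 3 at 37222759 to 37232636, on the minus strand (RefSeq, GRCm38.p6, the assembly also called mm10). The 250 bases before its annotated start are printed because Maf, which encodes c-Maf, was higher with Il21 in both sorts of both classes compared below. The sequence covers chr3:37232637-37232886 and reads 5′ to 3′ on the gene's strand, with capitals on the single match to TGCTGA, a core of the element that c-Maf binds.
Il21 promoter: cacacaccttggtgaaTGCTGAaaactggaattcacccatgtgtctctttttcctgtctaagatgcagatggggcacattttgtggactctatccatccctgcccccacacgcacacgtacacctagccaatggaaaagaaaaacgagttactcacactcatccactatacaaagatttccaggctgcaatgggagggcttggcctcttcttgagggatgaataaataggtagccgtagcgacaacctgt
Motifs were searched on both strands of a 300-base window that also holds the first 50 bases after the start. TGCTGA occurred in 19.5% of 32817 promoter windows of the same length. GGAAA, the NFAT core, matched 3 times, and 61.3% of all windows hold it. TGANTCA, the AP-1 element, and TTCNNNGAA, the STAT element, had 0 matches in this window, and 7.81% and 8.29% of all windows hold them. These matches describe letters and not binding.

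Il21 was found at similar frequency in the sorts. It was detected in 26 of 111 HIP follicular helper cells (23.4%, exact Clopper-Pearson 95% interval 15.9% to 32.4%) and in 17 of 61 Ins cells (27.9%, 17.1% to 40.8%). Among the Il21-detected HIP cells the lowest, median and highest levels were 4.07, 78.1 and 848 TPM. Among the Il21-detected Ins cells they were 1.79, 91.0 and 1231 TPM. Just inside the threshold lay cells at 1.79, 3.52 and 4.07 TPM, and just outside lay 2 cells at 0.61 and 0.90 TPM, so few cells were near it. Intervals cover counting error only.

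The transcript was not restricted to the follicular helper class. Cells of cluster 2 carry the annotation of activated CD4 T cells, and Il21 was detected there in 28 of 61 HIP cells and in 8 of 25 Ins cells. The 36 Il21-detected cells of cluster 2 had a median of 120 TPM, against 87.3 TPM for the 43 Il21-detected follicular helper cells. It was detected in 11 of 44 dividing cells, in 3 of 118 Treg cells and in 0 of 21 cells of the cluster annotated as B cells, where the exact interval reaches 16.1% and 3 cells of the total would be 14.3%. Treg cells were the abundant class with the lowest share, 2.54% (0.527% to 7.25%).

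**Figure D1:**
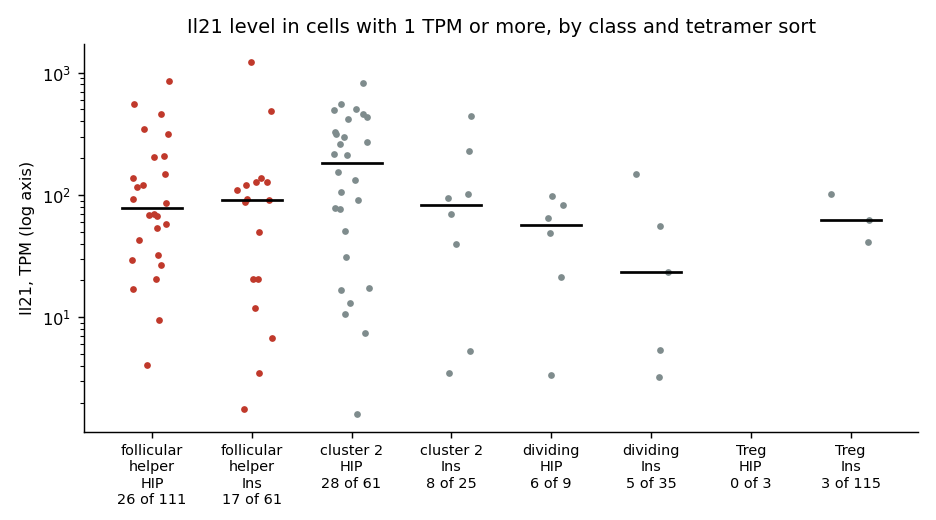
Il21 level in TPM on a log axis for every T cell with 1 TPM or more, by annotated class and tetramer sort, with the number of such cells under each name and a line at the median. The follicular helper cells, the 43 chosen here, spread from 1.79 to 1231 TPM over both sorts, and Treg cells gave 3 points.

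The defining factors Bcl6 and Cxcr5 set the follicular helper class apart from cluster 2 and Treg cells in share of cells, while Pdcd1 was as frequent in cluster 2 and Icos more frequent in Treg cells. Bcl6 was detected in 22 of 43 Il21-detected cells (51.2%) and in 55 of 129 other follicular helper cells (42.6%), against 6.98% of cluster 2 and 11.9% of Treg cells. Cxcr5 was detected in 39.5% of Il21-detected and 43.4% of other follicular helper cells, against 4.65% of cluster 2 and 11.9% of Treg cells. Pdcd1 was detected in 60.5% of Il21-detected and 59.7% of other follicular helper cells, against 61.6% of cluster 2 and 39.8% of Treg cells, and Icos in 65.1% of Il21-detected and 44.2% of other follicular helper cells, against 55.8% of cluster 2 and 74.6% of Treg cells. Cd3e, a chain of the T cell receptor complex, was detected in 43 of 43 Il21-detected and 119 of 129 other cells. Of the 172 cells, 126 held no islet, acinar, B cell or myeloid marker. An islet or acinar marker was found in 6 of 26 Il21-detected and 18 of 85 other HIP cells, and in 1 of 17 Il21-detected and 5 of 44 other Ins cells. Sdc1, C1qb, Fcer1g and Cdh5 were at under 1 TPM in every cell, and at least 1 of the 6 B cell and plasma cell markers was found in 2 of 43 Il21-detected and 12 of 129 other cells. Pecam1, an adhesion molecule of endothelium and some leukocytes, was found in 14.0% of Il21-detected and 24.8% of other cells. Cd8b1 was found in 32.6% of Il21-detected and 25.6% of other cells, while Cd8a was found in 0 of 43 Il21-detected and 6 of 129 other cells. Most cells that held Cd8b1 did so near the threshold. Their median was 4.16 TPM in Il21-detected and 3.66 TPM in other HIP cells. In Ins cells it was 3.76 TPM in Il21-detected and 3.18 TPM in other cells.

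Il21-detected cells also held more detected genes. In the HIP sort the lowest, median and highest gene numbers were 1405, 2151.5 and 3343 in Il21-detected cells, against 625, 1826 and 3341 in other cells. In the Ins sort they were 1323, 2132 and 2918 in Il21-detected cells, against 827, 1946 and 3284 in other cells. The ranges overlapped almost wholly, but the medians were 325.5 genes higher in HIP and 186 genes higher in Ins, a mean of 255.75. Read the other way, Il21 was found in 19 of 55 HIP cells above the sort's median gene number (34.5%) and in 7 of 56 at or below it (12.5%), and in 10 of 30 Ins cells above (33.3%) and 7 of 31 at or below it (22.6%). TPM keeps no sequencing depth, so gene number is the only stand-in for how much RNA was captured, and more captured RNA and more expressed genes cannot be told apart. Counts of called genes, and values for the genes that matter most, are therefore also given below within gene-number strata, that is, with cells above and below the median of their sort compared separately.

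**Figure D2:**
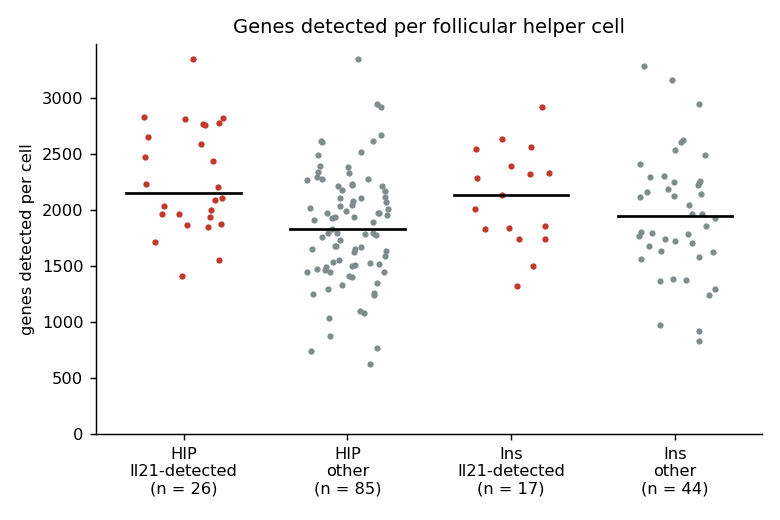
Genes detected per follicular helper cell, by tetramer sort, Il21-detected cells left of other cells, 1 point per cell with a line at the median. The medians of Il21-detected cells, 2151.5 in HIP and 2132 in Ins, lie above those of other cells, 1826 in HIP and 1946 in Ins, and the clouds overlap.

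The surplus of genes was not the same in all parts of the sorts. Blocks of 96 consecutive cell numbers, which may correspond to plates that the labels do not name, each held cells of 1 sort. In the HIP blocks the median was 409.5 and 729 genes higher in Il21-detected cells. In the Ins blocks it was 221 and 24.5 genes higher in 2 blocks and 374 lower in the block with 3 Il21-detected cells. One Ins block supplied 10 of the 17 Il21-detected Ins cells, with Il21 in 10 of its 22 follicular helper cells (45.5%, 24.4% to 67.8%), against 18.8% and 17.4% in the other Ins blocks, with overlapping intervals. Without that block the mean difference in gene number was 122.

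Differences in gene levels are given as the mean of log2(TPM + 1) in Il21-detected cells minus that in other cells. On this scale a gene found in few cells moves mainly with the share of cells that hold it. Across 5141 genes found at 1 TPM or more in at least 10% of the 172 cells, the median difference was 0.20, with 0.29 in HIP and 0.09 in Ins, so the typical gene was slightly higher in Il21-detected cells. Genes were called higher at a mean difference of 1 or more with the same sign in both sorts, and lower at -1 or less. By this rule 614 of 5141 genes (11.9%) were called higher and 44 (0.856%) lower. Within gene-number strata 401 (7.8%) were called higher and 102 (1.98%) lower, the median difference was 0.07, and 362 of the 614 and 40 of the 44 were called again. When each cell was centred on the 130 genes found in 90% of cells, the median difference was -0.21, with 246 genes called higher and 226 lower.

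The sorts shared little of the pattern. Over the 5141 genes the HIP and Ins differences correlated with a Pearson r of 0.094 and a Spearman rho of 0.070, and 52.2% of genes had the same sign in both, with 36.7% above 0 and 15.5% below 0 in both. Within gene-number strata r was 0.051 and 50.0% had the same sign. Genes share cells, and these values are across genes, which are not independent replicates. Read against this background, a call for a single gene describes these cells.

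**Figure D3:**
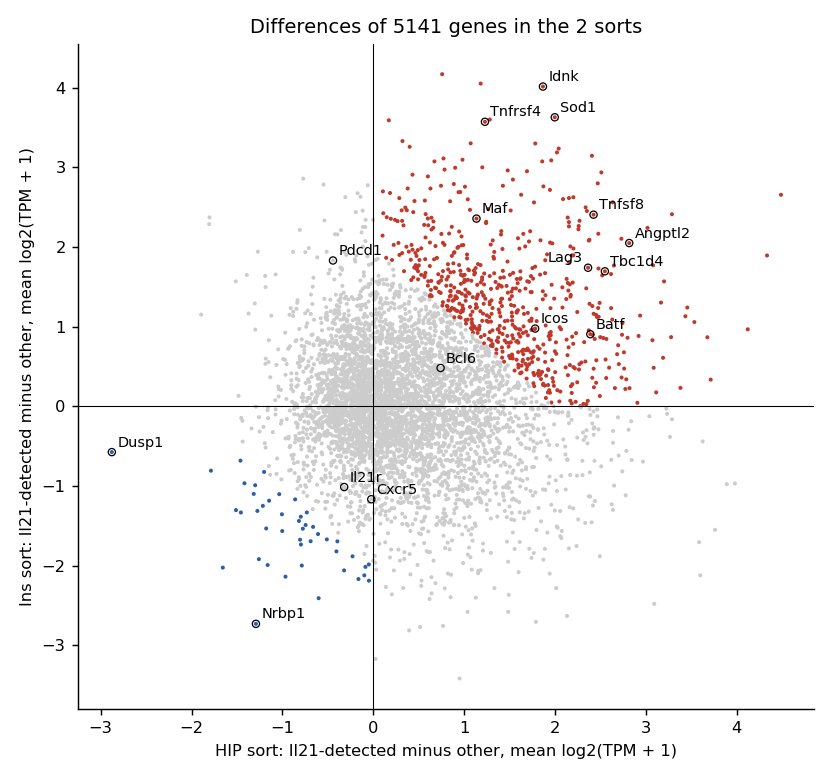
Difference in mean log2(TPM + 1), Il21-detected minus other follicular helper cells, in the HIP sort (horizontal) and the Ins sort (vertical) for 5141 genes. Red points are the 614 genes called higher and blue points the 44 called lower, and circled genes are named. The cloud shows almost no slope (r 0.094), and Maf, Angptl2, Tnfsf8 and Tbc1d4 lie in the upper right.

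Among the factors that drive Il21, Maf was higher in both sorts. In HIP cells Maf was detected in 14 of 26 Il21-detected cells (53.8%), with lowest, median and highest levels of 0, 2.84 and 309 TPM, against 24 of 85 other cells (28.2%), with 0, 0 and 218 TPM. In Ins cells it was detected in 10 of 17 Il21-detected cells (58.8%), with 0, 6.54 and 387 TPM, against 10 of 44 other cells (22.7%), with 0, 0 and 315 TPM. More Il21-detected cells held Maf in both sorts, and the ranges overlapped. The difference was 1.14 in HIP and 2.36 in Ins (mean 1.75), above 0 in 5 of 5 blocks, and 1.71 within gene-number strata.

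Batf, the AP-1 family partner of Irf4, averaged 533 ± 667 TPM in Il21-detected and 395 ± 856 TPM in other HIP cells (SD over cells). In Ins cells Batf averaged 598 ± 1038 TPM in Il21-detected and 318 ± 653 TPM in other cells. It was detected in 53.8% of Il21-detected and 29.4% of other HIP cells, and in 35.3% of Il21-detected and 29.5% of other Ins cells. Its difference was 2.39 in HIP and 0.91 in Ins (mean 1.65), above 0 in 3 of 5 blocks, and 1.27 within gene-number strata. Maf and Batf were found together in 12 of 43 Il21-detected cells (27.9%, 15.3% to 43.7%) and in 11 of 129 other cells (8.53%, 4.33% to 14.7%). At least 1 of them was found in 32 of 43 Il21-detected cells (74.4%) and in 61 of 129 other cells (47.3%). These counts pool the sorts and are not split by gene number. Each gene alone was found more often in Il21-detected cells, which by itself raises the joint count. Whether Maf and Batf occur together beyond that was not tested.

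Stat3, which carries the signal of IL-6 and IL-21 receptors, was detected in 18 of 26 Il21-detected and 36 of 85 other HIP cells, and in 11 of 17 Il21-detected and 21 of 44 other Ins cells. Its difference was 1.74 in HIP and 0.96 in Ins (mean 1.35), above 0 in 5 of 5 blocks, and 1.01 within gene-number strata. The lowest block was at 0.03. Stat3 was no longer called at 0.78 after a straight line on gene number was removed, or at 0.94 after centring. Gata3, best known as the type 2 helper factor, had a difference of 2.44 in HIP and 0.85 in Ins (mean 1.64), also above 0 in 5 of 5 blocks, and 1.68 within gene-number strata. Its lowest block was at 0.01. Irf4, a partner of Batf, was found in 4 of 26 Il21-detected and 9 of 85 other HIP cells, and in 2 of 17 Il21-detected and 5 of 44 other Ins cells, with a mean difference of 0.15. Of 20 counted genes in the list of Il21 inducing factors, 6 were called higher (Maf, Batf, Stat3, Gata3, Stat4 and Junb) and 0 lower. Over all counted genes 11.9% were called higher and 0.856% lower. Within gene-number strata 5 of the 20 were called higher and 0 lower, against 7.8% and 1.98%. The median of the list was 0.26, which became -0.14 when cells were centred, against 0.20 and -0.21 for all counted genes. The median of the list was thus close to that of all counted genes.

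The follicular helper programme did not move as a block. Bcl6 was detected in 15 of 26 Il21-detected cells of the HIP sort, with 0, 69.2 and 544 TPM as lowest, median and highest level, against 38 of 85 other cells, with 0, 0 and 2680.5 TPM. In the Ins sort it was detected in 7 of 17 Il21-detected cells, with 0, 0 and 734 TPM, against 17 of 44 other cells, with 0, 0 and 2065 TPM. Its mean difference of 0.61 was under the call limit and it was above 0 in 3 of 5 blocks. Cxcr5 lay the other way, with a difference of -0.02 in HIP and -1.17 in Ins (mean -0.59), short of a call. Within gene-number strata it was called lower at -1.05, with -0.48 in HIP and -1.63 in Ins, and its mean was -1.07 after a straight line on gene number was removed. At least 1 of Bcl6 and Cxcr5 was found in 29 of 43 Il21-detected and 82 of 129 other cells. Pdcd1, which encodes the inhibitory receptor PD-1, split by sort at -0.44 in HIP and 1.83 in Ins. Tcf7, a factor of early follicular helper and memory-like cells, and Sh2d1a, the adaptor SAP needed for lasting contact with B cells, had mean differences of 0.13 and -0.26.

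Other genes of this programme were higher with Il21. Angptl2, a secreted angiopoietin-like protein, was detected in 13 of 26 Il21-detected HIP cells, with 0, 3.73 and 3216 TPM as lowest, median and highest level, against 12 of 85 other HIP cells, with 0, 0 and 5529.9 TPM. It was detected in 7 of 17 Il21-detected Ins cells, with 0, 0 and 2406 TPM, against 11 of 44 other Ins cells, with 0, 0 and 1017 TPM. The HIP shares were 50.0% (29.9% to 70.1%) of Il21-detected and 14.1% (7.51% to 23.4%) of other cells. The Ins shares were 41.2% (18.4% to 67.1%) of Il21-detected and 25% (13.2% to 40.3%) of other cells. These intervals cover counting error over cells only and are not a test between the groups. The shares are not split by gene number. The difference was 2.82 in HIP and 2.05 in Ins, and the mean was 2.03 within gene-number strata.

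Tbc1d4, which controls the traffic of vesicles with the glucose transporter GLUT4 in muscle and fat, was detected in 22 of 26 Il21-detected and 44 of 85 other HIP cells, and in 14 of 17 Il21-detected and 26 of 44 other Ins cells. Its median level was 191 TPM in Il21-detected and 4.62 TPM in other HIP cells, and 202 TPM in Il21-detected and 160.2 TPM in other Ins cells. The difference was 2.55 in HIP and 1.69 in Ins, and the mean was 1.98 within gene-number strata. Gpm6b, a membrane glycoprotein known from neurons, had a difference of 1.77 in HIP and 2.56 in Ins. All 3, with Maf, were above 0 in 5 of 5 blocks, as were 4.14% of all counted genes. Icos, the costimulatory receptor whose signal sustains follicular helper cells, was detected in 28 of 43 Il21-detected and 57 of 129 other cells, with a difference of 1.78 in HIP and 0.98 in Ins. It was above 0 in 3 of 5 blocks, at 1.27 within gene-number strata, and no longer called at 0.90 with the straight line removed or at 0.97 after centring. Over the 19 alternative settings used at the end, Icos was called in 14, and its lowest difference was 0.34. P2rx7, an ATP-gated channel that limits follicular helper cell number in the gut, was lower at -0.78 in HIP and -1.54 in Ins. Of 27 counted genes in the follicular helper list, 11 were called higher and 1 lower (P2rx7), with a median of 0.69. Maf and Batf are on this list and also on that of Il21 inducing factors. Within gene-number strata 10 of the 27 were called higher and 2 lower (P2rx7 and Cxcr5), with a median of 0.46. Over all counted genes 11.9% were called higher and 0.856% lower, with a median of 0.20. Within gene-number strata these were 7.8%, 1.98% and 0.07.

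**Figure D4:**
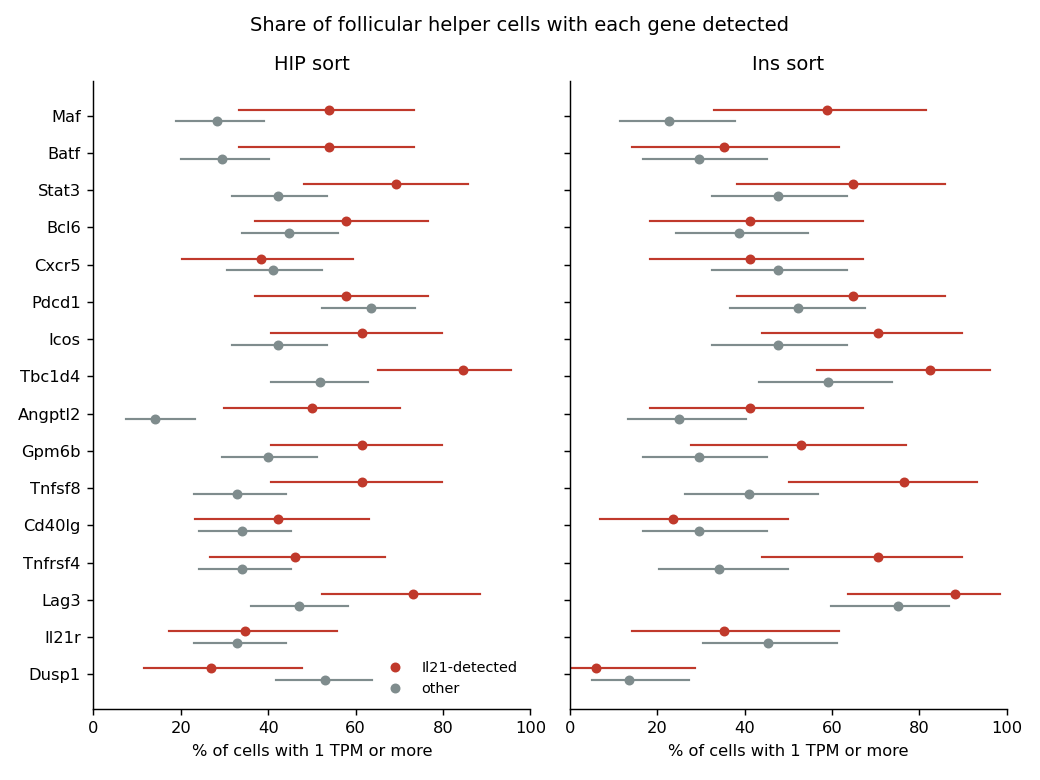
Share of follicular helper cells with each gene at 1 TPM or more, in the HIP sort (left panel) and the Ins sort (right panel). Red points are Il21-detected cells, grey points other cells, and lines are exact 95% intervals for counting error only. Maf lies at 53.8% of Il21-detected against 28.2% of other HIP cells, and at 58.8% of Il21-detected against 22.7% of other Ins cells, while the lines of Bcl6 and Cxcr5 overlap in both.

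Among the ligands by which helper cells reach B cells, Tnfsf8, which encodes the CD30 ligand, was called higher. It was detected in 16 of 26 Il21-detected cells of the HIP sort, with lowest, median and highest levels of 0, 43.7 and 3254 TPM, against 28 of 85 other cells, with 0, 0 and 2867 TPM. In the Ins sort it was detected in 13 of 17 Il21-detected cells, with 0, 156 and 2129.8 TPM, against 18 of 44 other cells, with 0, 0 and 4117 TPM. Over both sorts that was 67.4% of Il21-detected cells (51.5% to 80.9%) and 35.7% of other cells (27.4% to 44.6%), and the difference was 2.42 in HIP and 2.41 in Ins. It was above 0 in 4 of 5 blocks, with -3.31 in 1 Ins block, and 2.25 within gene-number strata. Cd40lg, which licenses B cells through CD40, was found in 34.9% of Il21-detected and 32.6% of other cells. Ltb, the membrane anchor of lymphotoxin, was found in 69.8% of Il21-detected and 77.5% of other cells.

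Il10, Il4 and Ifng were found in few cells of either group. Il10, an inhibitory cytokine, was found in 0 of 43 Il21-detected cells, where the exact interval reaches 8.22% and 3 cells of the total would be 6.98%, and in 2 of 129 other cells. Il4, the other main follicular cytokine, was found in 0 of 43 Il21-detected and 2 of 129 other cells, and Ifng, the type 1 cytokine, in 2 of 43 Il21-detected and 9 of 129 other cells. Members of the tumour necrosis factor family were found more often: Tnf in 6 of 43 Il21-detected and 10 of 129 other cells, Lta in 6 of 43 Il21-detected and 11 of 129 other cells, and Tnfsf11 in 6 of 43 Il21-detected and 18 of 129 other cells. In cluster 2 Il10 was found in 15 of 36 Il21-detected cells (41.7%, 25.5% to 59.2%) and 11 of 50 other cells (22.0%, 11.5% to 36.0%). Among Il21-detected cells the Il10 interval, 0% to 8.22% in the follicular helper class, lay below that in cluster 2. Both intervals cover counting error over cells only and are not a test. The classes are the authors' annotation of these same cells, so the comparison is a description. Csf1, the macrophage growth factor, was found in 8 of 43 Il21-detected (18.6%) and 6 of 129 other cells (4.65%), with overlapping intervals. The receptor of the cytokine, Il21r, was found in 15 of 43 Il21-detected and 48 of 129 other cells and was below 0 in 5 of 5 blocks, as were 2.12% of all counted genes, with a mean difference of -0.67, which was 0.15 without the cells that held a marker of another cell type.

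Of 10 counted genes in the list of inhibitory receptors, 5 were called higher and 0 lower in Il21-detected cells (Lag3, Cd200, Cd5, Btla and Ctla4), as within gene-number strata, against 11.9% and 7.8% of all counted genes called higher. The list holds Cd200, which is a ligand and not a receptor. Cd200 and Btla are also on the follicular helper list. Lag3, an inhibitory receptor that binds MHC class II, had a median of 525 TPM in Il21-detected and 0 TPM in other HIP cells, and 1083 TPM in Il21-detected and 378 TPM in other Ins cells. Its difference was 2.36 in HIP and 1.74 in Ins. Cd200, a ligand that restrains myeloid cells, had a difference of 3.07 in HIP and 0.83 in Ins, and Cd5, a brake on receptor signalling, had 1.18 in HIP and 1.77 in Ins. All 10 counted genes of this list had a mean difference above 0, against 65% of all counted genes, as they did within gene-number strata and after centring, though 9 of 10 did after a straight line on gene number was removed. In cluster 2 the median of the same list was -0.34. Of 14 counted costimulatory receptors 4 were called higher and 1 lower (Cd44, the hyaluronan receptor), with a median of 0.31 that was -0.10 after centring. Within gene-number strata 3 were called higher and 1 lower, with a median of 0.01, close to the 0.07 of all counted genes. Over all counted genes 0.856% were called lower, and 1.98% within gene-number strata. Tnfrsf4, which encodes the costimulatory receptor OX40, was detected in 12 of 26 Il21-detected and 29 of 85 other HIP cells, and in 12 of 17 Il21-detected and 15 of 44 other Ins cells, with a difference of 1.23 in HIP and 3.57 in Ins.

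Several genes of the regulatory T cell list were higher although its defining factor was not. Of 9 counted genes 4 were called higher: Tnfrsf4, Tnfrsf18, which encodes GITR, Ctla4 and Folr4, the folate receptor family member that activated and regulatory T cells carry. Within gene-number strata 4 were called as well, against 11.9% of all counted genes called higher and 7.8% within strata. All 4 genes called higher are also on lists described above, so they are not a separate set. Folr4 is on the follicular helper list, Ctla4 on that of inhibitory receptors, and Tnfrsf4 and Tnfrsf18 on that of costimulatory receptors. The median of the regulatory list was 1.84 in HIP and 0.06 in Ins, against 0.29 in HIP and 0.09 in Ins over all counted genes. Folr4 had a median of 1046 TPM in Il21-detected and 282 TPM in other HIP cells, and 1653 TPM in Il21-detected and 906 TPM in other Ins cells. Foxp3 was found in 3 of 43 Il21-detected and 7 of 129 other cells, and Il2ra in 0 of 43 Il21-detected and 6 of 129 other cells. Without the cells in which Foxp3 was found, 623 genes were called higher and 52 lower.

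Of 26 counted genes of the T cell receptor complex and its proximal signalling, 21 had a mean difference above 0, against 65% of all counted genes. Of the 26, 11 were called higher and 0 lower, with a median of 0.94, against 11.9%, 0.856% and 0.20 over all counted genes. Within gene-number strata 8 were called higher and 0 lower, with a median of 0.60, against 7.8%, 1.98% and 0.07. Cd4 was found in 42 of 43 Il21-detected cells and in 99 of 129 other cells, although all cells were sorted as CD4 T cells. Its levels were 0, 695 and 2130.2 TPM (lowest, median, highest) in Il21-detected and 0, 587 and 2938 TPM in other HIP cells, and 17.8, 800.4 and 2634 TPM in Il21-detected and 0, 501 and 2517 TPM in other Ins cells. Cd247, the zeta chain, had a difference of 3.44 in HIP and 1.13 in Ins. Among genes that every T cell uses, Gapdh was listed at 0 or under 1 TPM in 2 of 43 Il21-detected and 9 of 129 other cells, and B2m in 0 of 43 Il21-detected and 4 of 129 other cells.

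Lists of housekeeping genes depended on how gene number was treated. All 29 ribosomal protein genes had a mean difference above 0 (median 0.90, 11 called higher), and 3 were called higher within gene-number strata (median 0.62), but 16 of 29 did after a straight line on gene number was removed, where the median was 0.16. Of 21 genes of oxidative phosphorylation, 10 were called higher and 1 lower, against 11.9% and 0.856% of all counted genes. Within gene-number strata 6 were called higher and 4 lower, against 7.8% and 1.98%. Uqcrc1, a core subunit of complex III, had a difference of 1.18 in HIP and 4.05 in Ins. Of 20 genes of the secretory pathway, 6 were called higher and 1 lower, with Sec61a1 and Sec61b, subunits of the channel through which secreted proteins enter the endoplasmic reticulum, at 2.32 and 2.09. Within gene-number strata 4 were called higher and 1 lower, and the median of 0.58 was 0.23 there and 0.13 with the straight line removed. Of 13 interferon response genes 5 were called higher, against 11.9% of all counted genes, and 3 within gene-number strata, against 7.8%, with Ifi47, an interferon-inducible GTPase, at 2.34 in HIP and 2.50 in Ins.

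**Figure D5:**
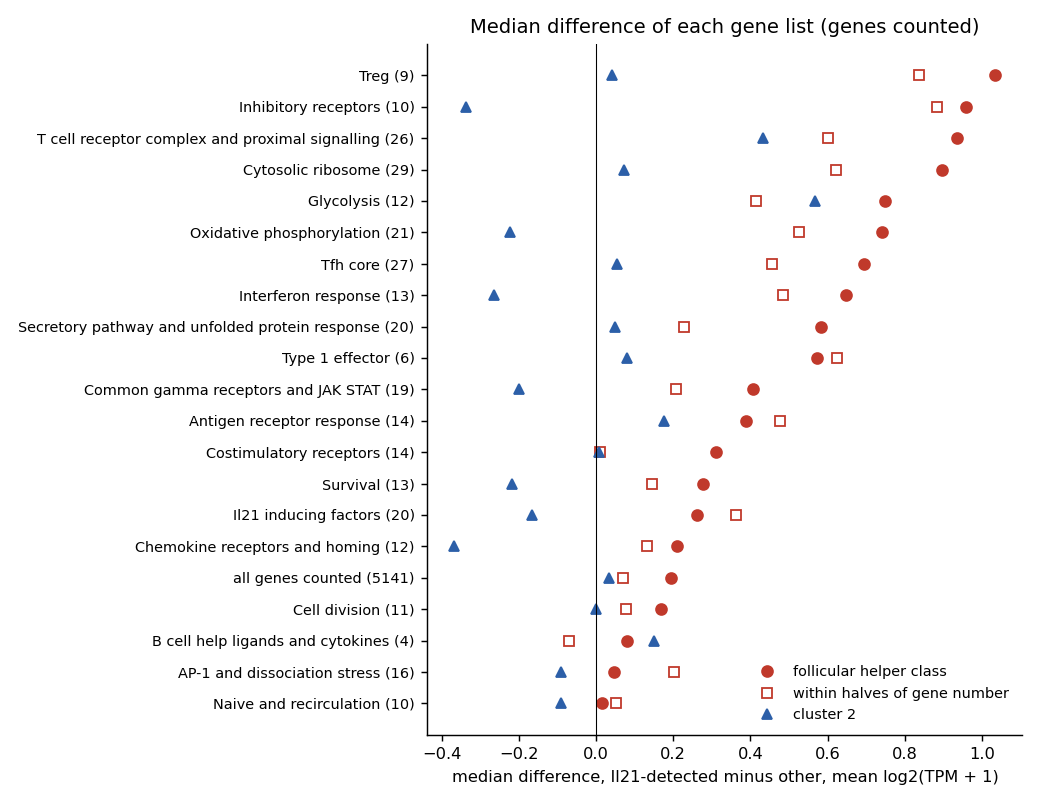
Median difference of each gene list in mean log2(TPM + 1), Il21-detected minus other cells, with the number of counted genes in brackets. Red circles are follicular helper cells, open squares the same cells within gene-number strata, and blue triangles cluster 2. The row of all 5141 counted genes, at 0.20, is the background; the T cell receptor list lies at 0.94 and, in cluster 2, at 0.43.

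Early response genes gave no common direction. In the list of AP-1 and dissociation stress genes 3 of 16 were called higher and 1 lower, with a median of 0.05, which was -0.36 after centring. Within gene-number strata 2 of the 16 were called higher and 1 lower. Over all counted genes 11.9% were called higher and 0.856% lower, and 7.8% and 1.98% within gene-number strata. Dusp1, a phosphatase induced by stress and growth signals, was detected in 7 of 26 Il21-detected and 45 of 85 other HIP cells, and in 1 of 17 Il21-detected and 6 of 44 other Ins cells, with a difference of -2.88 in HIP and -0.57 in Ins. Of 10 genes of naive and recirculating cells and 12 of chemokine receptors and homing, 0 were called in either direction. At the shares of all counted genes, lists this short would hold few called genes, so these counts do not set them apart. Within gene-number strata Cxcr5 and Cxcr3, a receptor of type 1 cells, were called lower and Rgs1, which damps chemokine receptor signals, was called higher among the 12, and 0 of the 10.

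A second rule took genes with the same sign in both sorts and in all 5 blocks and named the 12 with the largest mean difference each way. Those higher were Idnk, a gluconokinase (2.94), Tap2, a subunit of the peptide transporter for MHC class I (2.85), Sod1, the cytosolic superoxide dismutase (2.81), Lpxn, an adaptor related to paxillin (2.64), Hsp90ab1, a cytosolic chaperone (2.63), Uqcrc1 (2.62), Ccnd3, a D-type cyclin (2.60), Slfn1, a Schlafen family member (2.54), AW112010 (2.44), Angptl2 (2.43), H3f3a, a gene of histone H3.3 (2.41), and Tnfrsf4 (2.40). Tap2 was found in 19 of 26 Il21-detected and 32 of 85 other HIP cells, with medians of 361 TPM in Il21-detected and 0 TPM in other cells. In Ins cells it was found in 13 of 17 Il21-detected and 21 of 44 other cells, with medians of 389 TPM in Il21-detected and 0.465 TPM in other cells. Sod1 was found in 23 of 26 Il21-detected and 56 of 85 other HIP cells, and in 16 of 17 Il21-detected and 27 of 44 other Ins cells. Among cells that held Sod1 the median was 1211 TPM in Il21-detected and 1663 TPM in other HIP cells, and 1212 TPM in Il21-detected and 1407 TPM in other Ins cells. A larger share of Il21-detected cells held Sod1, at no higher level.

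Those lower included Nrbp1, a pseudokinase (-2.01), Snrpd2, a core protein of spliceosomal particles (-1.39), Atp1b1, a subunit of the sodium pump (-1.30), Sdhc, of complex II (-1.28), Cat, which encodes catalase (-1.24), Tmem242 (-1.23), Nsfl1c, a cofactor of the p97 ATPase (-1.19), Cdk2 (-1.19), P2rx7 (-1.16), Cers4, a ceramide synthase (-1.14), and Cmtm6, which stabilises PD-L1 (-1.13). Nrbp1 was found in 6 of 26 Il21-detected cells of the HIP sort, with a highest level of 388 TPM, against 29 of 85 other cells, with 2394 TPM. In the Ins sort it was found in 2 of 17 Il21-detected cells, with a highest level of 1238 TPM, against 17 of 44 other cells, with 10744 TPM. Within gene-number strata AW112010 was not called, with -0.10 in HIP and 3.40 in Ins. Since this rule chose genes by these same differences, they are a description.

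Cluster 2 gave cells that the choice of members had not used. There 36 Il21-detected cells (28 HIP and 8 Ins) were set against 50 other cells (33 HIP and 17 Ins) in the same way. Gene number did not separate them alike, at 98.5 genes lower in HIP and 269 higher in Ins. Of 5141 genes 368 (7.16%) were called higher and 312 (6.07%) lower in cluster 2. Of the 614 genes called higher in follicular helper cells, 331 (53.9%) had a mean difference above 0 in cluster 2, close to the 52.4% of all counted genes. Of the 44 called lower, 27 (61.4%) were below 0 there, against 47.6% of all genes. The differences of the classes correlated across genes at a Pearson r of 0.037.

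Genes called higher in both classes numbered 67 of 5141 (1.3%), which is 10.9% of the 614 and 18.2% of the 368, and 9.1% of all counted genes were above 0 in both sorts of both classes. Maf was among them. It was detected in 18 of 28 Il21-detected and 17 of 33 other HIP cells of cluster 2, and in 6 of 8 Il21-detected and 8 of 17 other Ins cells, with a difference of 1.55 in HIP and 1.53 in Ins. Angptl2 was found there in 14 of 28 Il21-detected and 8 of 33 other HIP cells, and in 3 of 8 Il21-detected and 3 of 17 other Ins cells, with a difference of 2.28 in HIP and 1.97 in Ins. Tbc1d4, with 1.34 in HIP and 0.71 in Ins, was also called, as were Tnfrsf4, Sod1, Ifi47, Sec61a1, Sec61b and Ptpn6, a phosphatase that limits receptor signalling. Of the 67, 18 were also above 0 in all 5 blocks of follicular helper cells.

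Those 18 included Srgn, Lck and Zap70, which fall outside the rule for named genes and were picked after their values were seen. Srgn, the proteoglycan of secretory granules, was detected in 25 of 26 Il21-detected and 69 of 85 other HIP follicular helper cells, and in 17 of 17 Il21-detected and 35 of 44 other Ins cells. Its difference was 2.48 in HIP and 2.17 in Ins, against 1.69 in HIP and 1.68 in Ins in cluster 2. Lck and Zap70, the first kinases of T cell receptor signalling, had mean differences of 1.25 and 1.35 in follicular helper cells and 1.03 and 1.37 in cluster 2.

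Other genes differed between the classes. Tnfsf8, at 2.42 in HIP and 2.41 in Ins follicular helper cells, was at -0.49 in HIP and -1.29 in Ins cells of cluster 2, where it was found in 5 of 36 Il21-detected and 14 of 50 other cells. Stat3 was at -0.52 in HIP and -2.16 in Ins there, Batf at -1.20 in HIP and 0.83 in Ins, and Irf4, which hardly differed in follicular helper cells, at 1.09 in HIP and 3.06 in Ins. In HIP cells of cluster 2 Gata3 was found in 15 of 28 Il21-detected and 15 of 33 other cells. In Ins cells of cluster 2 it was found in 1 of 8 Il21-detected and 8 of 17 other cells. The difference between the classes was not tested. Of the genes called lower in both classes, 5 in number (0.0973% of counted genes), Nrbp1, Snrpd2 and Prkcd were below 0 in all 5 blocks. Prkcd, a protein kinase C, and the remaining pair, Kcnn4, a calcium-activated potassium channel, and Fam96b, were named after their values were seen.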

How the data were processed

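Single CD4 T cells from islets were profiled with SMART-Seq2, per the labels. The submitters' processing notes list TopHat, Bowtie, RSEM 1.2.8 and the mm10 assembly and give them no role. The authors deposited natural log values (13561 genes, 441 cells). Their exponentials less 1 add up to 100000 per cell, which identifies ln(TPM/10 + 1), and TPM recovered on this basis adds up to 1000000. The deposited annotation gave each cell's class and gene number, which equalled the number of values above 0 in 441 of 441 cells and serves as a count of detected genes. TPM keeps no depth, and no count test was possible.

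The members, the gene lists and the tests were chosen with earlier results of these data known. Genes at 1 TPM or more in at least 10% of the 172 cells were counted, without Il21. Differences of mean log2(TPM + 1), with a pseudocount of 1 TPM, were taken within each sort and averaged. SDs are over cells and are not replicate error. The labels name no animals, so no test was made. Named genes were the 12 largest differences each way among genes with the same sign in both sorts and in every block of 96 cell numbers with at least 3 cells of each group (4636 eligible, 190 higher, 91 lower), without receptor segments, unnamed models and ribosomal protein genes; a core set; and the 3 largest members of each list described. Folr4, 4632428N05Rik and Igj were matched by older symbols, and Il2 was not analysed here. A few genes that these rules name are not reported here. Cells were sorted singly and no doublet caller was run; the highest correlation between 2 follicular helper cells was 0.475. Python 3.11.15, pandas 2.3.3, numpy 2.4.6, scipy 1.17.1 and matplotlib 3.10.9 were used. The arithmetic of the main difference was checked on simulated cells with genes drawn independently, where it returned the changes put in. The gene-number strata, the straight line, the centring and the rule for calls were not checked in this way. Coordinates and promoter sequence are from RefSeq (GRCm38.p6).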

Additional observations from a re-analysis of the deposited data

Results flagged for a closer look

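Among the named genes that were counted, the differences of 2 lay on opposite sides in the sorts in every block. Named genes were 94 besides Il21. The 5141 counted genes were not searched in this way, so how common such a split is among them is not given. S1pr1, the receptor by which lymphocytes leave tissue along sphingosine 1-phosphate, had a difference of 0.34 in HIP and -1.92 in Ins, 2.26 apart, and was above 0 in each HIP block and below 0 in each Ins block. Cd8b1, a chain of the CD8 coreceptor, had 0.79 in HIP and -0.36 in Ins, 1.15 apart, with the same split. Most cells that held Cd8b1 did so near the 1 TPM threshold, with a median of at most 4.16 TPM in each group. Neither difference between sorts was tested, and blocks of 1 sort share a sort.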

How the results depend on the processing

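No paired analysis was possible because the labels give no replicate numbers, and the groups of cells share only the sort they come from. Against 614 genes called higher and 44 lower, a pseudocount of 10 TPM gave 175 and 8, gene-number strata 401 and 102, a straight line on gene number 253 and 165, and centring on 130 shared genes 246 and 226. The number lower was 24 among genes found in 25% of cells, 89 without cells holding markers of other cell types (126 cells left), and 78 without cells under the lowest gene number of Il21-detected cells, an alternative chosen after seeing the data. With each block left out in turn, 529 to 816 genes were higher, 46 to 125 lower, 17 to 20 gene lists had a median above that of all counted genes (19 with all blocks), and gene number was 122 to 457.5 higher. The number lower was 113 without block 1, 95 without block 3, 125 without block 4 and 83 without block 5, and gene number was 122 higher without block 4 and 457.5 without block 1. The causes were not tested. Of 2278 other values for single genes and lists under these settings, 35 moved by more than the SD over blocks, and no called value changed sign. That SD was 0.75 for Angptl2, with a difference of 2.43, but 3.21 for Batf, with 1.65, and 4.43 for Ptpn6, with 1.90. For genes like the last 2 a fall to 0 would not count as moved. Calls were less stable for some genes. Of 19 alternatives, Mcm6 was called in 10, Junb in 11 and Stat4 in 12, while Maf was called in 18 and Angptl2 in 19. The alternatives with no detection filter and with genes found in 25% of cells change only which genes are counted. For a single gene they repeat the main value, so its call could not change and its value could not count as moved. The number of cells and the unknown depth limit genes found in few cells, for which 0 can be a failed capture.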
